A study of Homo sapiens with 31 samples.

Results

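LoVo, a cell line established from a metastasis of a human colorectal adenocarcinoma, was compared with CCD841CoN, a line from human colon that the labels call normal. The members are the 3 unmixed LoVo libraries and the 3 unmixed CCD841CoN libraries, 6 of the 31 libraries in the study, and all 17113 genes of the deposited count table, of which 14452 had enough reads to be tested. Each library was made from total RNA of untreated cells with a stranded kit that removes ribosomal RNA, so transcripts with and without a poly(A) tail could be read. The labels give large intestine colon as the tissue and no engineered change for both lines, adenocarcinoma for LoVo and normal for CCD841CoN. They give RPMI or DMEM with 10% fetal bovine serum as the media without saying which line grew in which, so medium and line cannot be told apart. The study mixed cancer RNA into CCD841CoN RNA to test computational deconvolution, and the unmixed libraries are the end points of those mixtures. For context, the 9 unmixed libraries of 3 other colorectal cancer lines (LS1034, HT-29 and HCT116, each n = 3) and the 4 mixtures of LoVo RNA in CCD841CoN RNA were also used. The 0.1% mixtures of those other lines served in an alternative fit. Each line stands for 1 tumour or 1 colon sample, so a difference between LoVo and CCD841CoN is a difference between those lines and not between cancer and normal colon.

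The colon is lined by a sheet of epithelial cells joined by tight junctions and by E-cadherin, and these cells carry microvilli, secrete mucus and move salt and water. Beneath the sheet lies a stroma of fibroblasts and smooth muscle that deposits collagen and contracts. Adenocarcinomas arise from the epithelium, usually after loss of APC switches on Wnt signalling.

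Counts per library ran from 12543986 to 37418506 in LoVo and from 9688765 to 24640112 in CCD841CoN. Levels are given as TMM-scaled CPM, counts relative to a library's scaled total, which are not corrected for gene length and so compare a gene between libraries, not 1 gene with another. A difference was called where edgeR's quasi-likelihood test gave an adjusted p under 0.05 and the log2 fold change was at least 1 in size. Where a line had no count in its 3 libraries, the ratio is a lower bound set by 3 counts over the group, 0.0376 CPM in LoVo and 0.077 CPM in CCD841CoN, which covers counting error only. The LoVo libraries differed more among themselves than the CCD841CoN libraries did, with a median SD per gene of 0.54 against 0.196 on the log2 scale. Spearman's rho across genes, which are not independent replicates, was 0.9471 to 0.9544 between LoVo libraries, 0.9869 to 0.9914 between CCD841CoN libraries and 0.6599 to 0.6891 between the lines. LoVo replicate 2 stood apart in having 900 genes counted in it alone of the 3, against 442 for replicate 1 and 27 for replicate 3. CCD841CoN replicate 1 had 651 genes counted in it alone, against 259 for replicate 2 and 215 for replicate 3. It was also the deepest library of that line, with 24640112 counts against 11664065 and 9688765. Such numbers of genes depend on depth. Mitochondrially encoded genes took 0.455% to 0.864% of the counts in LoVo and 0.275% to 0.312% in CCD841CoN, and the 50 genes with most counts took 9.72% to 11.7% and 17.7% to 18.0%. These values moved with the line and their part in the results below was not tested. Whether replicate libraries stand for separate cultures is not stated, so p-values measure their spread, which may be technical.

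The labels name no cell type, and marker genes were used to describe the lines. All 13 epithelial markers were higher in LoVo, with a summed level of 7547 to 13148 CPM per library against 286 to 371 CPM in CCD841CoN, where KRT20, ESRP1, GRHL2 and VIL1 had no count. Of 12 fibroblast and mesenchymal markers, 11 were lower in LoVo, with sums of 2.07 to 11.4 CPM against 30526 to 34813 CPM, and TWIST1 had no count in LoVo. The exception, PRRX1, was at 1.32, 1.07 and 0 CPM in LoVo and 0, 0.604 and 0 CPM in CCD841CoN. Of 6 smooth muscle and myofibroblast markers, 4 were lower, with sums of 7.14 to 14.04 CPM in LoVo and 3815 to 4436 CPM in CCD841CoN. MYH11 and DES were not called and were low in both lines. In CCD841CoN, as scaled with the mixtures below, MYH11 was at 0.18, 0.787 and 1.06 CPM and DES at 0, 0.0984 and 0 CPM. The 4 endothelial markers in the table summed to 0.704 to 2.08 CPM in CCD841CoN and 0 to 1.11 CPM in LoVo. The 4 immune markers summed to 14.2 to 56.5 CPM in CCD841CoN, of which CD14, a lipopolysaccharide receptor, was the gene tested, and to 0 to 0.554 CPM in LoVo. By these markers, the colon line labelled normal carried stromal transcripts at high levels and epithelial transcripts at low levels, so in each difference below, tumour origin and cell type cannot be told apart. In RNA from a whole culture, fewer cells that express a gene and less RNA per cell cannot be told apart.

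**Figure D1:**
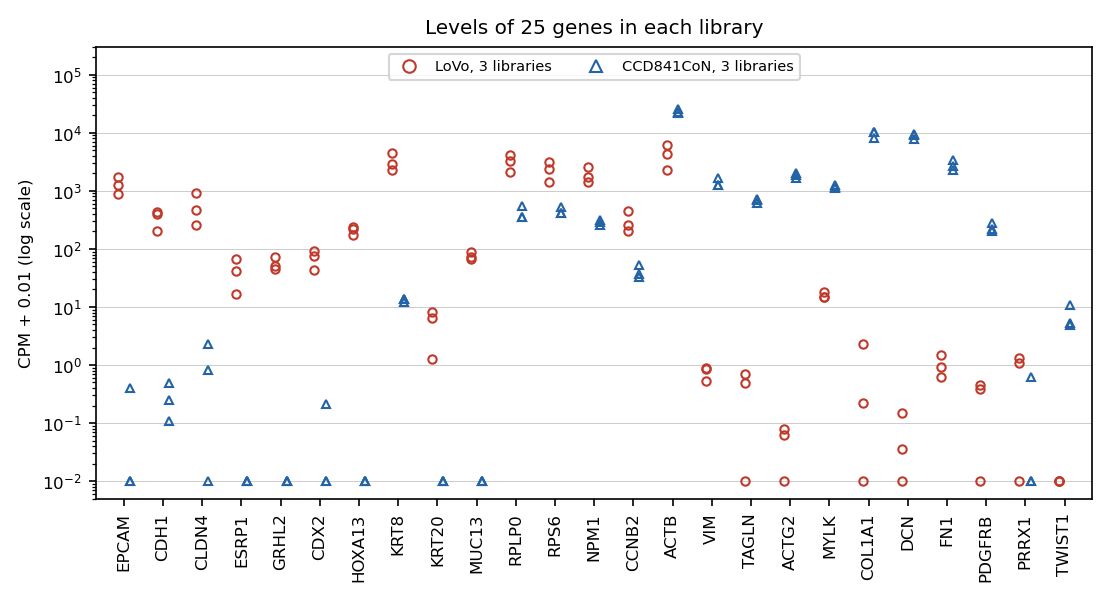
Levels of 25 genes in each of the 3 LoVo libraries (circles) and 3 CCD841CoN libraries (triangles), as TMM-scaled CPM plus 0.01 on a log axis. Most epithelial genes sit low in CCD841CoN and most collagen, smooth muscle and fibroblast genes low in LoVo. KRT8 in CCD841CoN and MYLK in LoVo lie well above the bottom of the axis, and PRRX1 is low in both lines. RPLP0, RPS6, NPM1, CCNB2 and ACTB are counted in all 6 libraries.

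Of the 14452 genes tested, 6930 (48.0%) were called, 3814 (26.4%) higher in LoVo and 3116 (21.6%) lower. Counts of calls in the lists below are to be read against these shares. The median log2 fold change over all genes tested was 0.23 with TMM, 0.08 with DESeq2's size factors and 0.56 with library size alone, and fold changes are to be read against that shift. With library size alone, 65.18% of the called genes were higher in LoVo, against 55.04% with TMM. Many differences were close to on or off: 656 called genes had no count in CCD841CoN and 133 had none in LoVo. Those called genes that reached a mean of 10 CPM in the line that had them numbered 215 and 53. The LoVo libraries together were deeper, so having no count was easier in CCD841CoN. The floor of 3 counts was 0.077 CPM there and 0.0376 CPM in LoVo. How much of the difference in these numbers comes from depth was not tested. At the other end, 7792 genes had a mean of at least 10 CPM in both lines, of 9277 in LoVo and 9045 in CCD841CoN.

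**Figure D2:**
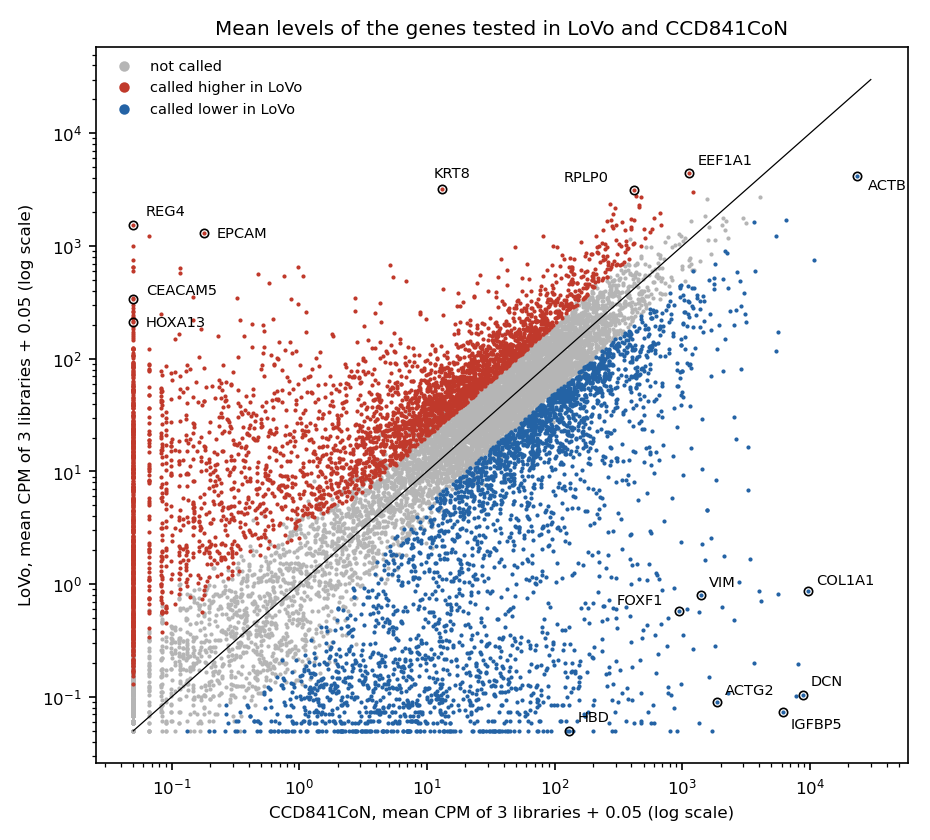
Mean level of each gene tested in CCD841CoN (horizontal) and LoVo (vertical), each over 3 libraries, as CPM plus 0.05 on log axes, with the line of equal levels. Genes called higher in LoVo are red, genes called lower are blue, and the genes at the left and lower edges had no count in CCD841CoN or in LoVo.

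Epithelial genes were higher in LoVo, from transcription factors to junctions. All 15 epithelial transcription and splicing factors tested were called higher, against 26.4% of all genes, and 8 of them had no count in CCD841CoN. Their median log2 fold change was 10.37, or 7.82 with the genes without a count at their lower bound, against 0.23 over all genes. GRHL2, a grainyhead factor that maintains epithelial identity, was at 50, 45.3 and 72.9 CPM in LoVo, with no count in CCD841CoN, at least 728-fold higher. ESRP1, a splicing factor that sets the epithelial form of many transcripts, was at 66.1, 16.6 and 42 CPM in LoVo, with no count in CCD841CoN, at least 539.9-fold higher. ELF3, an ETS factor of surface epithelia, was at 59.1, 70.9 and 103 CPM in LoVo and 0, 0 and 0.239 CPM in CCD841CoN. Each of these genes was well above CCD841CoN in every LoVo library, with no overlap. OVOL1 and OVOL2, zinc finger repressors of mesenchymal genes, had no count in CCD841CoN and were at least 176-fold and 226-fold higher. KLF5, a factor of proliferating crypt cells that other tissues also express, was at 841, 527 and 930.3 CPM in LoVo and 31, 42.8 and 40.4 CPM in CCD841CoN, a 20.1-fold difference (log2 fold change 4.33 ± 0.36 SE, adjusted p = 9.4e-08). CCD841CoN thus had counts of KLF5 in each library and none of GRHL2.

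Genes of epithelial adhesion and polarity followed: 28 of 32 tested were higher, 1 was lower, and the median log2 fold change was 6.58. CDH1, which encodes E-cadherin, was at 401, 207 and 435 CPM in LoVo and 0.242, 0.101 and 0.479 CPM in CCD841CoN, 1271-fold higher (log2 fold change 10.36 ± 0.56 SE, adjusted p = 1.88e-09). CLDN7, a tight junction claudin, was at 349.9, 372 and 908 CPM in LoVo and 0.484, 0.905 and 0.718 CPM in CCD841CoN. CXADR, a junctional adhesion molecule that coxsackieviruses use as a receptor, was at 198, 214 and 163 CPM in LoVo, with no count in CCD841CoN. For these genes every LoVo library was above every CCD841CoN library, and LoVo replicate 2 was the lowest of the LoVo libraries for CDH1. RAB25, a small GTPase of apical recycling, was at 70.2, 90.2 and 109 CPM in LoVo and 0.0484, 0 and 0 CPM in CCD841CoN (log2 fold change 11.51 ± 0.55 SE, adjusted p = 1.18e-09, and no count in CCD841CoN without its replicate 1). Among desmosome genes, DSP (desmoplakin) had no count in CCD841CoN and was at least 3672-fold higher. PKP3 (plakophilin), of the desmosome plaque, had a log2 fold change of 4.66 ± 0.45 (SE). CLDN1, another claudin, was the gene called lower, at 19.6, 15.9 and 17.2 CPM in LoVo and 261, 372 and 372 CPM in CCD841CoN, on the other side from CLDN7.

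CRB3, a polarity protein of the apical membrane, was at 18, 30.5 and 42.7 CPM in LoVo and 0.0484, 0 and 0 CPM in CCD841CoN (log2 fold change 9.95 ± 0.72 SE, adjusted p = 2.14e-08, and no count in CCD841CoN without its replicate 1). Its promoter is shown because the sequence CACCTG, the core that zinc finger repressors such as SNAI2 and ZEB1 are known to bind, occurs in it 5 times. The 250 bases before the start site, in RefSeq's GRCh38.p14 (chr19:6464021-6464270, plus strand), are given with CACCTG or its reverse complement in capitals.

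CRB3: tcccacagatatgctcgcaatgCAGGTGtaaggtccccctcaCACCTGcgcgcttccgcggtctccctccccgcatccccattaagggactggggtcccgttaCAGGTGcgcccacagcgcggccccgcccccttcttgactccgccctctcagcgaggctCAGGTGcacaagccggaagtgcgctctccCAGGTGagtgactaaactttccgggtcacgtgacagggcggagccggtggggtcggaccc

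CACCTG was searched on both strands in the promoters of 11549 genes tested that had an entry. It was found in 9 of 20 promoters of the adhesion list (45.0%) and in 4 of 8 of the epithelial factor list (50.0%), against 16.3% of all 11549. Promoters of genes called higher held it in 20.4% of cases and promoters of genes called lower in 12.8%. These shares describe letters in a window and not binding.

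Membrane serine proteases and their inhibitors, which process proteins at the epithelial surface, were higher for 8 of 9 tested, with a median of 6.99 (6.59 with bounds), and 1 was not called. ST14 (matriptase) was at 137, 330.2 and 283 CPM in LoVo and 0.0968, 0 and 0 CPM in CCD841CoN (log2 fold change 12.13 ± 0.62 SE, adjusted p = 1.53e-09, and no count in CCD841CoN without its replicate 1). SPINT1, its Kunitz inhibitor, was at 116, 167 and 218 CPM in LoVo and 1.55, 1.21 and 2.51 CPM in CCD841CoN. F2RL1, a receptor that proteases cleave and activate, was at 239, 240.2 and 293 CPM in LoVo and 1.45, 3.72 and 6.34 CPM in CCD841CoN. The protease, its inhibitor and the receptor were each higher in all 3 LoVo libraries. TMPRSS2 and TMPRSS4, other transmembrane proteases, had no count in CCD841CoN and were at least 477-fold and 174-fold higher.

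Keratins are the intermediate filaments of epithelia. Of 13 tested, 5 were higher and 1 was lower (2 without LoVo replicate 3), with a median of 0.63. The share called, 46.2%, was near the 48.0% over all genes. KRT8 was at 2246, 2928 and 4523 CPM in LoVo and 12.2, 13.5 and 13.8 CPM in CCD841CoN, 246-fold higher (log2 fold change 7.94 ± 0.54 SE, adjusted p = 1.22e-08), and its partner KRT18 was at 1770, 1933 and 3331 CPM in LoVo and 238, 297 and 283 CPM in CCD841CoN. KRT19 was at 559, 906 and 1496 CPM in LoVo and 34.4, 58.4 and 53.1 CPM in CCD841CoN. KRT20, a keratin of differentiated colon cells, was at 8.2, 1.25 and 6.37 CPM in LoVo, with no count in CCD841CoN. CCD841CoN thus had counts of the simple keratins KRT8, KRT18 and KRT19 in every library, all below the lowest LoVo library, and none of KRT20.

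Factors that specify the intestine were also higher in LoVo. Of 14 tested, 12 were higher and 2 were not called, with a median of 7.88 (4.98 with bounds). CDX2, the homeobox factor that sets intestinal identity, was at 42.6, 76.3 and 92.9 CPM in LoVo and 0, 0.201 and 0 CPM in CCD841CoN (log2 fold change 10.24 ± 0.78 SE, adjusted p = 3.28e-08, and 9.27 without CCD841CoN replicate 1 and no count in CCD841CoN without its replicate 2). FOXA2, a pioneer factor of endoderm, was at 37.5, 38.6 and 41.1 CPM in LoVo, with no count in CCD841CoN. HNF4G, a nuclear receptor of enterocytes, was at 131, 55.2 and 82.8 CPM in LoVo, with no count in CCD841CoN. The 3 LoVo libraries were above all CCD841CoN libraries for each of these factors. GATA6, an endoderm factor that stromal cells also express, was at 94, 83.8 and 78.8 CPM in LoVo and 9.54, 5.13 and 7.9 CPM in CCD841CoN, so CCD841CoN was not without every gene of the list.

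Of 32 HOX genes tested, whose combination records position along the body, 14 were higher and 7 lower, with a median of 2.34. Over all genes, 26.4% were higher and 21.6% lower, so the share of HOX genes called lower was near that of all genes. HOXA13 and HOXD13, of the most posterior group of the clusters, had counts in LoVo alone. HOXA13 was at 239.9, 218 and 173 CPM in LoVo, with no count in CCD841CoN, at least 2729-fold higher. HOXD13 was at 14.4, 12.3 and 17.7 CPM in LoVo, with no count in CCD841CoN. HOXB9 was at 22.3, 16.4 and 32.4 CPM in LoVo, with no count in CCD841CoN. HOXB13 was at 15.9, 22.3 and 33.6 CPM in LoVo, with no count in CCD841CoN. For the posterior genes the LoVo libraries did not overlap with CCD841CoN. HOXC6, of the middle of its cluster, differed the other way, at 1.74, 2.21 and 2.23 CPM in LoVo and 34.1, 32.1 and 33.7 CPM in CCD841CoN (log2 fold change -4.02 ± 0.58 SE, adjusted p = 2.92e-05). HOXA13 also stood above the other cancer lines, with means of 45.5 CPM in LS1034, 76.6 CPM in HT-29 and 11.8 CPM in HCT116 (log2 difference 2.60 ± 0.26 SE, adjusted p = 4.94e-06).

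Mucus and other secreted gut products held some of the largest ratios. Of 24 tested, 17 were higher and 1 was lower (0 on leaving out any library but LoVo replicate 2), with a median of 8.74 (5.20 with bounds), and the summed level was 3358 ± 903 CPM in LoVo against 2.64 ± 0.972 CPM in CCD841CoN (SD, n = 3 each). MUC13, a mucin anchored in the apical membrane, was at 66.4, 88.9 and 73 CPM in LoVo, with no count in CCD841CoN. AGR2, the disulfide isomerase that folds mucins, was at 901, 295 and 594 CPM in LoVo, with no count in CCD841CoN (at least 7744-fold higher, adjusted p = 1.43e-08). MUC2, the gel-forming mucin of goblet cells, was at 13.1, 26.4 and 10.6 CPM in LoVo, with no count in CCD841CoN. SPINK4, a protease inhibitor of goblet cells, was at 9.62, 19.2 and 25.2 CPM in LoVo, with no count in CCD841CoN. The LoVo libraries were the high ones for these genes, and the CCD841CoN libraries were at or near 0. Some genes of the list were near 0 in LoVo too. As scaled with the mixtures below, TFF3 was at 0.0227, 0.193 and 0 CPM in LoVo and ZG16 at 0, 0.0321 and 0 CPM.

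REG4, a secreted lectin of enteroendocrine and goblet cells, was at 1274, 1271 and 2112 CPM in LoVo, with no count in CCD841CoN, at least 20154-fold higher. Its promoter is shown for TTTATNG, a spelling of the site that CDX factors are known to bind, which occurs once in the window. The 250 bases before the start site, in RefSeq's GRCh38.p14 (chr1:119811461-119811710, minus strand), have the match in capitals.

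REG4: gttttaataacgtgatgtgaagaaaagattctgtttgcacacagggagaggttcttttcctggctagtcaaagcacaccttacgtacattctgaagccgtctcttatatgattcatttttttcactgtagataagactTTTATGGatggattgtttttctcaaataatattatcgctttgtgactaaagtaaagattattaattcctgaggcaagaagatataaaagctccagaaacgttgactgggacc

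TTTATNG, searched on both strands, was in 5 of 16 promoters of the mucus list (31.2%) and 2 of 17 of the brush border list (11.8%), against 6.07% of the 11549 promoters. CAAAGTCCA, a spelling of the site of HNF4 receptors, was in 0 of 17 brush border promoters and 0 of 7 promoters of intestinal factors, against 0.251% of all.

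Brush border and enterocyte genes, which build and fill the microvilli, were higher for 17 of 23 tested and lower for 2, with a median of 6.35 (3.92 with bounds). VIL1 (villin), which bundles actin in microvilli, was at 16.2, 30.8 and 21.1 CPM in LoVo, with no count in CCD841CoN. USH1C (harmonin), of the links between microvilli, was at 42.6, 50.9 and 68.5 CPM in LoVo, with no count in CCD841CoN. MYO1A, a brush border myosin, was at 28.2, 40 and 27 CPM in LoVo, with no count in CCD841CoN. These genes separated the lines fully. Other members of the list were near 0 in LoVo too. As scaled with the mixtures below, SI was at 0, 0.0642 and 0 CPM in LoVo. LCT was at 0, 0.257 and 0 CPM there, and SLC15A1 at 0.182, 0.161 and 0 CPM. EPS8, an actin capping protein found in many cell types, was at 1348, 1132 and 1206 CPM in LoVo and 80.6, 95.1 and 69.4 CPM in CCD841CoN, 15-fold higher (log2 fold change 3.91 ± 0.25 SE, adjusted p = 6.56e-09). ANPEP, an aminopeptidase of enterocytes that fibroblasts also carry, was lower in LoVo, at 0.0264, 0.173 and 0.23 CPM in LoVo and 47.2, 98.7 and 90.3 CPM in CCD841CoN (log2 fold change -9.28 ± 0.95 SE, adjusted p = 7.56e-07, and -8.63 without LoVo replicate 1).

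Genes of ion and fluid transport were higher for 9 of 18 tested and lower for 2, with a median of 3.24 (2.23 with bounds). GUCY2C, the receptor for guanylin and for heat-stable enterotoxin, was at 7.7, 7.37 and 4.45 CPM in LoVo and 0.242, 0.101 and 0.239 CPM in CCD841CoN. KCNQ1, a potassium channel of secretory epithelia, was at 24.3, 25.1 and 37.8 CPM in LoVo and 0, 0 and 0.239 CPM in CCD841CoN (log2 fold change 8.94 ± 0.63 SE, adjusted p = 1.59e-08, and 7.97 without CCD841CoN replicate 1 and no count in CCD841CoN without its replicate 3). AQP3, a water and glycerol channel, was at 31.1, 64.9 and 94.6 CPM in LoVo and 6.73, 7.65 and 8.85 CPM in CCD841CoN. In each the LoVo libraries lay above the CCD841CoN libraries. SLC4A4, a sodium bicarbonate cotransporter, was lower in LoVo, at 5.01, 5.19 and 3.91 CPM in LoVo and 168, 136 and 156 CPM in CCD841CoN.

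Notch signalling decides between absorptive and secretory fates in the crypt. Of 24 genes of the pathway and the secretory lineage, 13 were higher, 3 lower, and the median was 2.18 (1.67 with bounds). HES1, the repressor that Notch induces, was at 75.5, 56.8 and 95.6 CPM in LoVo and 2.37, 2.52 and 5.26 CPM in CCD841CoN (log2 fold change 4.52 ± 0.69 SE, adjusted p = 4.72e-05), and the ligand JAG1 was at 128, 106 and 76.5 CPM in LoVo and 32.5, 19.5 and 27.4 CPM in CCD841CoN. HES6, an inhibitor of HES1, was at 20.8, 52.5 and 57.4 CPM in LoVo and 11.9, 5.83 and 6.7 CPM in CCD841CoN. Each was higher in all 3 LoVo libraries. DLL4, another ligand, was lower, at 4.75, 4.78 and 6.52 CPM in LoVo and 34.4, 80.8 and 67 CPM in CCD841CoN, as was SOX4, a progenitor factor, at 41.2, 34.9 and 36.9 CPM in LoVo and 166, 167 and 159.7 CPM in CCD841CoN. ATOH1 and SPDEF, of the secretory lineage, were each at 0.0227, 0 and 0 CPM in LoVo, as scaled with the mixtures below. Enteroendocrine genes summed to 5.74 ± 0.717 CPM in LoVo and 8.17 ± 1.12 CPM in CCD841CoN (SD, n = 3 each).

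Wnt signalling stabilizes beta-catenin, which switches on target genes with TCF factors. Of 25 target and stem cell genes, 14 were higher and 5 lower, with a median of 2.88. ZNRF3 and RNF43, ligases that remove Wnt receptors and are themselves induced by Wnt, were both higher. ZNRF3 was at 26.6, 28.6 and 32.8 CPM in LoVo and 3.73, 3.72 and 4.55 CPM in CCD841CoN (log2 fold change 2.88 ± 0.26 SE, adjusted p = 1.77e-07). RNF43 was at 106, 53 and 56.4 CPM in LoVo, with no count in CCD841CoN, at least 930.5-fold higher. For both ligases the groups did not overlap. SOX9, a crypt progenitor factor, was at 274, 199 and 307 CPM in LoVo and 8.18, 6.84 and 11.2 CPM in CCD841CoN. MYC was at 475, 299 and 580 CPM in LoVo and 41.9, 36.8 and 47.1 CPM in CCD841CoN (log2 fold change 3.43 ± 0.39 SE, adjusted p = 2.53e-06). CD44, an adhesion receptor that is a Wnt target and is also abundant in fibroblasts, was lower in LoVo, at 133, 110.1 and 111 CPM in LoVo and 4831, 5658 and 5732 CPM in CCD841CoN (log2 fold change -5.52 ± 0.41 SE, adjusted p = 2.45e-08). CTTTGA, a spelling of the TCF site, was in 2 of 15 promoters of the list (13.3%), against 8.12% of all.

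Wnt ligands, receptors and antagonists were lower more often than higher: of 33 tested, 14 were lower and 7 higher, with a median of 0.00, or -0.83 with bounds. WNT11 was at 15.1, 17.8 and 13.7 CPM in LoVo and 0.194, 0.704 and 0.838 CPM in CCD841CoN. FZD5, a receptor of intestinal epithelium, was at 47.9, 42.4 and 11.2 CPM in LoVo and 1.45, 2.31 and 1.2 CPM in CCD841CoN. Both were higher in every LoVo library. WNT5A, a ligand of the noncanonical branch that stroma secretes, was at 0.976, 0.173 and 0 CPM in LoVo and 336, 631 and 627 CPM in CCD841CoN (log2 fold change -10.16 ± 0.84 SE, adjusted p = 8.12e-08, and -12.11 without LoVo replicate 1). DKK3, a secreted relative of Wnt antagonists, was at 1.21, 2.91 and 1.07 CPM in LoVo and 1861, 2269 and 2197 CPM in CCD841CoN. FZD7 was at 25.5, 21.5 and 15.2 CPM in LoVo and 108, 83.1 and 85.3 CPM in CCD841CoN. The LoVo libraries were the low ones for these 3 genes, without overlap.

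Genes of the extracellular matrix were mostly lower in LoVo. Collagens were lower for 23 of 30 tested and higher for 4, with a median of -6.88 and a summed level of 152 ± 45.0 CPM in LoVo against 28686 ± 1638 CPM in CCD841CoN (SD, n = 3 each). COL1A1, a chain of type I collagen, was at 0.211, 2.25 and 0 CPM in LoVo and 8062, 10186 and 10508 CPM in CCD841CoN, 11688-fold lower in LoVo (log2 fold change -13.40 ± 1.08 SE, adjusted p = 5.95e-08, and -16.04 without LoVo replicate 2). COL3A1, of the fibrils of soft tissue, was at 0.554, 4.33 and 0 CPM in LoVo and 3181, 3437 and 3585 CPM in CCD841CoN. COL6A2, of beaded microfibrils, was at 0.0264, 0 and 0 CPM in LoVo and 1249, 1390 and 1425 CPM in CCD841CoN. COL4A1, of basement membranes, was at 0.0791, 0.138 and 0 CPM in LoVo and 840.3, 730 and 765 CPM in CCD841CoN. No LoVo library came near any CCD841CoN library for these chains.

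Matrix glycoproteins and proteoglycans were lower for 28 of 33 tested and higher for 2 (1 on leaving out any library but LoVo replicate 3), with a median of -8.29. FN1 (fibronectin) was at 0.923, 1.45 and 0.614 CPM in LoVo and 2269, 2638 and 3381 CPM in CCD841CoN, 2772-fold lower (log2 fold change -11.38 ± 0.61 SE, adjusted p = 1.74e-09). LUM (lumican), which spaces collagen fibrils, was at 0.685, 1.25 and 1.23 CPM in LoVo and 498, 737 and 733 CPM in CCD841CoN. ELN (elastin) was at 0.105, 0.415 and 0.384 CPM in LoVo and 324, 748 and 765 CPM in CCD841CoN. All were high in the 3 CCD841CoN libraries and at or near 0 in LoVo. Matrix enzymes and their inhibitors were lower for 25 of 31 and higher for 3, with a median of -7.16. LOX, which cross-links collagen and elastin, was at 2.93, 1.87 and 0 CPM in LoVo and 1405, 1561 and 1549 CPM in CCD841CoN. MMP2 (gelatinase A) was at 0, 0.173 and 0 CPM in LoVo and 1894, 2442 and 2525 CPM in CCD841CoN. TIMP1, an inhibitor of metalloproteinases, was at 65.3, 153 and 153 CPM in LoVo and 1322, 1237 and 1196 CPM in CCD841CoN, so it was counted in both lines and still separated them. MMP15, a metalloproteinase of the cell membrane, was higher in LoVo, at 26.1, 44.5 and 17.6 CPM in LoVo and 1.36, 1.21 and 3.35 CPM in CCD841CoN.

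Integrins and laminins, the receptors and basement membrane proteins that hold cells to the matrix, divided into 11 higher and 13 lower of 30 tested, with a median of -1.09. ITGB4 and ITGA6, which form the hemidesmosome integrin, were both higher. ITGB4 was at 466, 352 and 587 CPM in LoVo and 0.387, 0.704 and 0.479 CPM in CCD841CoN (log2 fold change 9.85 ± 0.49 SE, adjusted p = 1.53e-09). ITGA6 was at 788, 420.5 and 371 CPM in LoVo and 46.6, 31.5 and 29.1 CPM in CCD841CoN. LAMB3, of the laminin that hemidesmosomes bind, was at 289, 146 and 573 CPM in LoVo and 0.968, 0.402 and 1.08 CPM in CCD841CoN. In these 3 genes LoVo was the high line in every library. ITGA5, the fibronectin receptor chain, was at 5.56, 8.27 and 15.2 CPM in LoVo and 499, 634 and 669.8 CPM in CCD841CoN (log2 fold change -5.97 ± 0.95 SE, adjusted p = 7.09e-05). ITGA11, a collagen receptor chain of fibroblasts, was at 0.185, 0.242 and 0 CPM in LoVo and 102, 162 and 201 CPM in CCD841CoN. LAMC1, a widely expressed laminin chain, was at 60.7, 72 and 48 CPM in LoVo and 443, 416 and 473 CPM in CCD841CoN. In ITGA5, ITGA11 and LAMC1, CCD841CoN was the high line.

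Contractile and cytoskeletal genes were lower for 27 of 30 tested and higher for 1, with a median of -3.80. ACTG2, the enteric smooth muscle actin, was at 0.0527, 0.0692 and 0 CPM in LoVo and 1679, 2002 and 1893 CPM in CCD841CoN (log2 fold change -15.04 ± 1.17 SE, adjusted p = 4.27e-08). TAGLN (transgelin), an actin-binding protein of smooth muscle, was at 0.475, 0.692 and 0 CPM in LoVo and 610.1, 728 and 702 CPM in CCD841CoN. CNN1 (calponin) was at 0, 0.0692 and 0 CPM in LoVo and 187, 190.1 and 174 CPM in CCD841CoN. The CCD841CoN libraries lay close together for each, and the LoVo libraries held few or no counts. MYLK, the kinase that starts smooth muscle contraction, was lower by less, at 14.8, 14.9 and 18.3 CPM in LoVo and 1103, 1246 and 1145 CPM in CCD841CoN, 72.7-fold (log2 fold change -6.18 ± 0.48 SE, adjusted p = 4.1e-08). VIM (vimentin), the intermediate filament of mesenchymal cells, was at 0.527, 0.865 and 0.844 CPM in LoVo and 1674, 1276 and 1243 CPM in CCD841CoN. MRTFA and MRTFB, coactivators of serum response factor that sense actin, lay on opposite sides. MRTFA was at 7.3, 8.27 and 4.22 CPM in LoVo and 40.3, 26.3 and 31.5 CPM in CCD841CoN. MRTFB was at 37.1, 42.7 and 18.4 CPM in LoVo and 11.5, 3.52 and 3.71 CPM in CCD841CoN. Neither gene overlapped between the lines.

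Serum response factor is known to bind the CArG box, CC followed by 6 bases A or T and then GG. The promoters of ACTG2 and MYLK are shown because ACTG2 holds 2 such boxes and MYLK 1, in capitals. The windows are the 250 bases before the start site in RefSeq's GRCh38.p14, for ACTG2 chr2:73892758-73893007, plus strand, and for MYLK chr3:123620549-123620798, minus strand.

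ACTG2: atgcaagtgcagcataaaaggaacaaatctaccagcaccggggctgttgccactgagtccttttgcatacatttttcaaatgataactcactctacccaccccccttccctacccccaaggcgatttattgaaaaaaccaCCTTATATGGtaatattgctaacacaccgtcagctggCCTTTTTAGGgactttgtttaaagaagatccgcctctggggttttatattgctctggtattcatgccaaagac

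MYLK: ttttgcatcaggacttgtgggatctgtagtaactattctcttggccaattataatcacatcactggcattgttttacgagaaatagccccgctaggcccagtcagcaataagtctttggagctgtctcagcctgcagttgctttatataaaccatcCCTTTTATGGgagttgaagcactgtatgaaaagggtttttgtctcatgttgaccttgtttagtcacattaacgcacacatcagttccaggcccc

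The CArG pattern, though not each box, is the same on both strands, so each site was counted once. A box was in 6 of 25 promoters of the contractile list (24.0%), against 1.07% of the 11549 promoters of genes tested.

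Caveolae and targets of YAP and TEAD, which report mechanical tension, were lower for 16 of 20 and not called for 4, with a median of -3.45. CAV1, the coat protein of caveolae, was at 68.7, 106 and 69.4 CPM in LoVo and 2584, 3042 and 3080 CPM in CCD841CoN (log2 fold change -5.15 ± 1.02 SE, adjusted p = 0.000521). CAVIN1, its partner, was at 62.6, 189.6 and 115 CPM in LoVo and 2121, 1765 and 1709 CPM in CCD841CoN. CCN1 was at 5.91, 6.02 and 15.8 CPM in LoVo and 1116, 1000 and 952 CPM in CCD841CoN. The 3 genes were counted in all 6 libraries and were lower in each LoVo library. CCN2, a matricellular growth factor that YAP is known to induce, was at 4.88, 5.47 and 3.22 CPM in LoVo and 1674, 1468 and 1504 CPM in CCD841CoN (log2 fold change -8.40 ± 0.91 SE, adjusted p = 1.39e-06). WWTR1, which encodes the YAP relative TAZ, was at 23.4, 18.8 and 18.8 CPM in LoVo and 179, 147 and 150.2 CPM in CCD841CoN. The CCN2 promoter is shown for GGAATG, the core of the TEAD site, which occurs in it 3 times (capitals, either strand, 250 bases before the start site in RefSeq's GRCh38.p14, chr6:131951373-131951622, minus strand).

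CCN2: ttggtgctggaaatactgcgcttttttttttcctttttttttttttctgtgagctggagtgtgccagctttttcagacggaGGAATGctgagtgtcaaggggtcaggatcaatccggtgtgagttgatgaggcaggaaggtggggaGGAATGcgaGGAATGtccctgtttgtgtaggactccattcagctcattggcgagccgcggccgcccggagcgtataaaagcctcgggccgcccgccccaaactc

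GGAATG was in 4 of 15 promoters of the list (26.7%) and in 9.62% of the 11549.

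Mesenchymal transcription factors were lower for 18 of 30 tested and higher for 2, with a median of -3.32. FOXF1, a forkhead factor of gut mesenchyme, was at 0.343, 0.865 and 0.384 CPM in LoVo and 927, 989 and 936 CPM in CCD841CoN (log2 fold change -10.77 ± 0.88 SE, adjusted p = 7.11e-08, and -11.45 without LoVo replicate 2). TWIST2 was at 8.28, 9.46 and 10.7 CPM in CCD841CoN, with no count in LoVo. TWIST1, its relative, was at 10.7, 5.33 and 4.91 CPM in CCD841CoN, with no count in LoVo. ZEB1, a repressor of CDH1, was at 0.606, 0.311 and 0.767 CPM in LoVo and 194, 137 and 155 CPM in CCD841CoN. SNAI2, another, was at 0, 0.0346 and 0 CPM in LoVo and 96, 133 and 139.9 CPM in CCD841CoN. For these factors LoVo was below CCD841CoN in every library, while CDH1 and CRB3 were above. NKX2-3, a homeobox factor of gut smooth muscle and spleen, was at 2.21, 1.9 and 3.07 CPM in LoVo and 68, 67.6 and 67.5 CPM in CCD841CoN. HAND1, a factor of heart and placenta, differed the other way, at 27.9, 24.6 and 73.6 CPM in LoVo and 0.145, 0 and 0.239 CPM in CCD841CoN.

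TGF-beta and BMP genes were lower for 22 of 42 and higher for 8, with a median of -1.35, while 20 of the 42 were higher than in the other cancer lines and 2 lower. TGFBR2, the receptor through which TGF-beta halts epithelial growth, was at 163, 61.1 and 91.7 CPM in LoVo and 365, 507 and 498 CPM in CCD841CoN (log2 fold change -2.12 ± 0.34 SE, adjusted p = 6.91e-05). TGFBI, a matrix protein that TGF-beta induces, was at 28.2, 39.2 and 24.3 CPM in LoVo and 1870, 2911 and 2895 CPM in CCD841CoN. GREM1, a BMP antagonist of the stroma around crypts, was at 2.29, 7.99 and 3.91 CPM in LoVo and 181, 111 and 116 CPM in CCD841CoN. All were higher in each CCD841CoN library. BMP4 and BMP7, ligands of the pathway, were higher in LoVo. BMP4 was at 409, 485 and 931 CPM in LoVo and 44, 39.7 and 42.7 CPM in CCD841CoN. BMP7 was at 15.4, 33.2 and 25.9 CPM in LoVo and 0.194, 2.92 and 2.63 CPM in CCD841CoN (log2 fold change 3.76 ± 0.80 SE, adjusted p = 0.000927, and 3.16 without CCD841CoN replicate 1). BMP2, another ligand, was lower in LoVo, at 26.9, 16.2 and 28 CPM in LoVo and 302, 564 and 578 CPM in CCD841CoN.

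Of 17 genes of the insulin-like growth factor axis, 7 were lower and 3 higher, with a summed level of 416 ± 46.9 CPM in LoVo and 15079 ± 458 CPM in CCD841CoN (SD, n = 3 each). IGFBP7, a secreted binding protein, was at 0.712, 1.42 and 0.153 CPM in LoVo and 5322, 5969 and 5459 CPM in CCD841CoN (log2 fold change -12.72 ± 1.49 SE, adjusted p = 3.16e-06, and -13.51 without LoVo replicate 2). IGFBP4 was at 5.96, 11.1 and 7.83 CPM in LoVo and 1742, 1928 and 1854 CPM in CCD841CoN. IRS2, an adaptor of the insulin receptor, was higher, at 28.3, 17 and 13.5 CPM in LoVo and 4.5, 2.01 and 3.35 CPM in CCD841CoN. INSR, the receptor itself, was at 58.4, 68.8 and 40.7 CPM in LoVo and 3.97, 4.83 and 6.94 CPM in CCD841CoN. IGFBP7 and IGFBP4 were thus low in LoVo, where IRS2 and INSR were high.

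Receptor tyrosine kinases split into 11 higher and 8 lower of 26 tested, with a median of 0.94 (0.78 with bounds). ERBB3, a partner of the EGF receptor, was at 412, 318 and 334 CPM in LoVo and 0.29, 0 and 0 CPM in CCD841CoN (log2 fold change 11.20 ± 0.62 SE, adjusted p = 1.98e-09, and no count in CCD841CoN without its replicate 1). MET, the receptor for HGF, was at 700.4, 563 and 389.8 CPM in LoVo and 25.9, 23 and 28.7 CPM in CCD841CoN. EPHA1, an ephrin receptor of epithelia, was at 56.8, 137 and 104 CPM in LoVo and 0.726, 0.704 and 0.479 CPM in CCD841CoN. PDGFRB, which marks fibroblasts and pericytes, was at 0.448, 0.381 and 0 CPM in LoVo and 282, 207 and 222 CPM in CCD841CoN (log2 fold change -9.49 ± 0.58 SE, adjusted p = 5e-09). AXL, the receptor for GAS6, was at 2.61, 1.18 and 4.68 CPM in LoVo and 562, 572 and 573 CPM in CCD841CoN. For the first 3 receptors LoVo was the high line and for the other two CCD841CoN was, without overlap. Among 26 growth factor ligands, 7 were higher and 10 lower, against 26.4% and 21.6% of all genes. EREG (epiregulin), a ligand of the EGF receptor, was at 828, 169 and 744 CPM in LoVo and 0, 0.201 and 0 CPM in CCD841CoN. TGFA, another, was at 32.3, 35.6 and 33.9 CPM in LoVo, with no count in CCD841CoN (at least 441-fold higher, adjusted p = 3e-09). HGF was at 0.0527, 0.173 and 0 CPM in LoVo and 302, 232 and 236 CPM in CCD841CoN, on the other side from its receptor MET. FGF7, which stroma sends to epithelia, was at 0.211, 0.277 and 0 CPM in LoVo and 429, 488 and 471 CPM in CCD841CoN. NRG1, a ligand of ERBB3, was at 0.211, 0.104 and 0 CPM in LoVo and 8.43, 26.5 and 16.5 CPM in CCD841CoN. Of 18 MAPK feedback genes, 4 were higher and 5 lower, near the 26.4% and 21.6% over all genes. DUSP5, a nuclear ERK phosphatase, was at 58.4, 39.5 and 44.1 CPM in LoVo and 5.81, 4.33 and 5.62 CPM in CCD841CoN. SPRY4, an inhibitor of receptor signalling, was at 23.4, 30.3 and 22.8 CPM in LoVo and 60, 69.4 and 80.8 CPM in CCD841CoN.

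Genes of growth and division were higher in LoVo, by smaller ratios and for most members. Cytosolic ribosomal proteins, a list added after their shares of counts were seen, were higher for 68 of 79 and not called for 11, with a median of 1.88. Their summed level was 65020, 49670 and 86458 CPM in LoVo and 22781, 16035 and 15267 CPM in CCD841CoN, so each LoVo library was above each CCD841CoN library. RPLP0, of the ribosomal stalk, was at 3206, 2091 and 4107 CPM in LoVo and 549.7, 348 and 359 CPM in CCD841CoN (log2 fold change 2.90 ± 0.30 SE, adjusted p = 8.04e-07). RPS6, a target of S6 kinases, was at 2357, 1392 and 3194 CPM in LoVo and 534, 417 and 412 CPM in CCD841CoN. Ribosomal protein genes have many processed pseudogenes, so reads could be shared between copies. Of 33 genes of MYC, ribosome biogenesis and nucleotide synthesis, 24 were higher and 9 were not called, with a median of 1.76. NPM1, a nucleolar chaperone, was at 2581, 1445 and 1757 CPM in LoVo and 311, 287 and 258 CPM in CCD841CoN (log2 fold change 2.76 ± 0.25 SE, adjusted p = 1.82e-07). NOLC1, of the nucleolus, was at 485, 307 and 358 CPM in LoVo and 89.4, 83.4 and 87 CPM in CCD841CoN. PSAT1, of serine synthesis, was at 1376, 367 and 1249 CPM in LoVo and 120.1, 92 and 80 CPM in CCD841CoN. These 3 genes were counted in all 6 libraries and did not overlap between the lines.

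Mitosis and replication genes were higher for 33 of 43 and not called for 10, with a median of 1.66. Their summed level was 4553 to 8355 CPM in LoVo and 2061 to 2446 CPM in CCD841CoN. MKI67, which cycling cells express, was at 122, 319 and 171 CPM in LoVo and 28.7, 9.36 and 11.2 CPM in CCD841CoN (log2 fold change 3.62 ± 0.48 SE, adjusted p = 1.09e-05, and 4.31 without CCD841CoN replicate 1). CDK1, the mitotic kinase, was at 261, 293 and 385 CPM in LoVo and 76.1, 69 and 67.6 CPM in CCD841CoN. TOP2A, a topoisomerase, was at 597, 498 and 706 CPM in LoVo and 154, 106 and 141 CPM in CCD841CoN. LoVo was higher in every library. Against the mean of the other 3 cancer lines, 3 of the 43 genes were lower in LoVo and 40 were not called.

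CCNB2, a mitotic cyclin, was at 204, 260.2 and 449 CPM in LoVo and 52.6, 36.5 and 32.2 CPM in CCD841CoN (log2 fold change 2.91 ± 0.31 SE, adjusted p = 1.12e-06). Its promoter is shown for CCAAT, which the factor NF-Y is known to bind and which occurs in it 4 times (capitals, either strand, 250 bases before the start site in RefSeq's GRCh38.p14, chr15:59104896-59105145, plus strand).

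CCNB2: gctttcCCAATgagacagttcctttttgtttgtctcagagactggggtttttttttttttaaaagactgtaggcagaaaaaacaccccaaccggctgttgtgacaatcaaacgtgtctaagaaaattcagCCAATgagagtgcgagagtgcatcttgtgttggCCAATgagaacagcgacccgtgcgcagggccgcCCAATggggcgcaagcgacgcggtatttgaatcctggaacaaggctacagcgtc

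CCAAT was in 26 of 36 promoters of the mitosis list (72.2%) and 11 of 28 of the MYC list (39.3%), against 34.7% of the 11549 promoters. Among promoters of all genes called higher it was in 34.9%, and among those called lower in 33.2%.

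DNA repair genes were higher for 16 of 25 (10 without LoVo replicate 2) and not called for 9, with a median of 1.15. BRCA2, of homologous recombination, was at 32.6, 26.4 and 19.3 CPM in LoVo and 3.87, 6.34 and 8.97 CPM in CCD841CoN (log2 fold change 2.05 ± 0.38 SE, adjusted p = 0.000263). FANCI, of cross-link repair, was at 144, 283 and 214 CPM in LoVo and 35.5, 37 and 32.3 CPM in CCD841CoN. Both were higher in all LoVo libraries. MSH3, of mismatch repair, was at 134, 63 and 75 CPM in LoVo and 31.3, 32.9 and 26.9 CPM in CCD841CoN. PMS2, also of mismatch repair, was at 37.6, 35.5 and 38.5 CPM in LoVo and 13.6, 11.7 and 10.9 CPM in CCD841CoN. Cyclins, cyclin-dependent kinases and their inhibitors were higher for 5 of 21 and lower for 5, shares near those over all genes (26.4% and 21.6%). CCND1 (cyclin D1) was at 264, 282 and 257 CPM in LoVo and 2445, 2228 and 2371 CPM in CCD841CoN. CCND2 (cyclin D2) was at 710.2, 1186 and 404 CPM in LoVo and 124, 116 and 116 CPM in CCD841CoN. CCND1 was thus lower and CCND2 higher in LoVo than in CCD841CoN. CDKN2A, an inhibitor that rises in ageing fibroblasts, was at 4.01, 4.5 and 7.75 CPM in LoVo and 51.3, 44.9 and 48.5 CPM in CCD841CoN (log2 fold change -3.17 ± 0.38 SE, adjusted p = 4.54e-06).

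Of 31 p53 target genes, 8 were higher and 8 lower, with a median of -0.23, shares near the 26.4% and 21.6% over all genes. BBC3 (PUMA), a promoter of cell death, was higher, at 41.8, 30.7 and 80 CPM in LoVo and 7.84, 6.64 and 6.94 CPM in CCD841CoN, and ZMAT3 was lower, at 51, 30.6 and 10.9 CPM in LoVo and 197, 192 and 193 CPM in CCD841CoN. TP53I3 was at 6.57, 12.3 and 23.9 CPM in LoVo and 109, 129.6 and 121 CPM in CCD841CoN (log2 fold change -3.08 ± 0.50 SE, adjusted p = 8.04e-05). Apoptosis regulators were higher for 9 of 28 and lower for 4. The share called, 46.4%, was near the 48.0% over all genes. BCL2, which blocks cell death, was at 12.3, 13.2 and 7.29 CPM in LoVo and 0.436, 0.402 and 0.12 CPM in CCD841CoN (log2 fold change 5.00 ± 0.85 SE, adjusted p = 0.000136). CASP8, which starts death receptor signalling, was at 68, 51.4 and 72.7 CPM in LoVo and 15.9, 16 and 11.5 CPM in CCD841CoN. CASP1, the inflammasome caspase, was lower, at 0, 0.0346 and 0 CPM in LoVo and 94.7, 117 and 119 CPM in CCD841CoN.

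Antigen presentation genes were lower for 15 of 22 and not called for 7, with a median of -1.66, and their summed level was 1711 ± 219 CPM in LoVo and 8107 ± 823 CPM in CCD841CoN (SD, n = 3 each). B2M held most of the CCD841CoN sum, at 182, 64.3 and 271 CPM in LoVo and 5006, 6124 and 5868 CPM in CCD841CoN. The difference between the sums thus rested largely on that gene. HLA-B, which presents peptides, was at 7.17, 9.28 and 5.52 CPM in LoVo and 74.9, 177 and 107 CPM in CCD841CoN (log2 fold change -4.02 ± 0.70 SE, adjusted p = 0.000168). TAP1, the peptide transporter, was at 15.8, 23.5 and 32.8 CPM in LoVo and 86.5, 101 and 95 CPM in CCD841CoN. ERAP2, which trims peptides, was at 5.12, 4.78 and 3.99 CPM in LoVo and 119, 126 and 130.3 CPM in CCD841CoN. LoVo was the low line in every library. HLA genes share sequence, so their reads could be split between copies.

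Interferon-stimulated genes and sensors of foreign nucleic acid split into 10 higher and 12 lower of 34, with a median of -0.46. Over all genes, 26.4% were higher and 21.6% lower. On the higher side, OAS1, which senses double-stranded RNA, was at 53.9, 41.6 and 68 CPM in LoVo and 2.66, 1.11 and 2.87 CPM in CCD841CoN (log2 fold change 4.61 ± 0.58 SE, adjusted p = 6.62e-06). TLR3, an endosomal RNA sensor, was at 32.5, 19.4 and 16.3 CPM in LoVo and 4.99, 2.62 and 1.55 CPM in CCD841CoN. On the lower side, IFI16, a DNA sensor, was at 1.16, 0.381 and 1.38 CPM in LoVo and 73.2, 75 and 63.6 CPM in CCD841CoN (log2 fold change -6.21 ± 0.74 SE, adjusted p = 3.55e-06). STING1, the adaptor of DNA sensing, was at 15.4, 23.5 and 36 CPM in LoVo and 129, 133 and 132 CPM in CCD841CoN. CGAS, which makes the messenger that STING1 binds, was higher, at 43.9, 45.9 and 48.3 CPM in LoVo and 12.6, 17.8 and 19.4 CPM in CCD841CoN, so the sensor and its adaptor lay on opposite sides. IFIH1 (MDA5), a cytosolic RNA sensor, was at 38.3, 18.4 and 32.4 CPM in LoVo and 3, 5.23 and 5.62 CPM in CCD841CoN (log2 fold change 2.70 ± 0.54 SE, adjusted p = 0.000561). IFITM3, a membrane protein that blocks viral entry, was at 104, 252 and 234 CPM in LoVo and 1009, 1158 and 1073 CPM in CCD841CoN (log2 fold change -2.46 ± 0.34 SE, adjusted p = 1.76e-05).

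IFIH1 and IFITM3 differed in opposite directions, and both promoters hold the core of the interferon-stimulated response element, GAAA, any 2 bases, GAAA, on either strand. The windows, with the matches in capitals, are the 250 bases before the start site in RefSeq's GRCh38.p14: for IFIH1 chr2:162318685-162318934, minus strand, where 2 of 3 matches overlap, and for IFITM3 chr11:320861-321110, minus strand, with 2 matches.

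IFIH1: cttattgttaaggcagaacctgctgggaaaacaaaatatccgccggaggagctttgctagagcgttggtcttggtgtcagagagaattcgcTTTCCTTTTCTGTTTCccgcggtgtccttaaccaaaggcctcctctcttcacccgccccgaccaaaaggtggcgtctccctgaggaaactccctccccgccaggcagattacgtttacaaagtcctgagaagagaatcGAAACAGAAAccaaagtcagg

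IFITM3: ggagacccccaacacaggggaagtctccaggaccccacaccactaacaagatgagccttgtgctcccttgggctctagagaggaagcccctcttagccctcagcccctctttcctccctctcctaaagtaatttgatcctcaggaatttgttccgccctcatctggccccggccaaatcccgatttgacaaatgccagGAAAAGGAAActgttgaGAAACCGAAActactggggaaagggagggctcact

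The core was in 13 of 22 promoters of the interferon list (59.1%) and 6 of 17 of the antigen presentation list (35.3%), against 2.35% of the 11549. It was in 2.34% of promoters of genes called higher and 2.50% of genes called lower.

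Chemokines and cytokines were lower for 16 of 28 and higher for 8, with a median of -2.26. IL6 was at 0.0264, 0 and 0 CPM in LoVo and 9.49, 10.3 and 10.1 CPM in CCD841CoN (log2 fold change -9.14 ± 1.03 SE, adjusted p = 1.21e-05, and no count in LoVo without its replicate 1). CCL2, which attracts monocytes, was at 0, 0.0346 and 0 CPM in LoVo and 10.4, 5.94 and 7.78 CPM in CCD841CoN. IL11, a cytokine of stroma, was at 0.0527, 0 and 0.307 CPM in LoVo and 56.9, 66.7 and 65.9 CPM in CCD841CoN. All 3 were near 0 in LoVo. IL33, an alarmin stored in nuclei, was higher, at 231, 116 and 321 CPM in LoVo and 0.29, 0 and 0 CPM in CCD841CoN (log2 fold change 10.53 ± 1.00 SE, adjusted p = 3.46e-07, and no count in CCD841CoN without its replicate 1), and so was CXCL16, at 81.9, 129 and 132 CPM in LoVo and 1.55, 1.81 and 0.838 CPM in CCD841CoN. S100 proteins and metallothioneins were higher for 10 of 18 and lower for 5. S100P, a calcium-binding protein, was at 501, 127 and 1319 CPM in LoVo, with no count in CCD841CoN. S100A6, of the same family, was at 452, 787 and 841 CPM in LoVo and 2160, 1666 and 1620 CPM in CCD841CoN. MT1G, a metallothionein, was at 16.4, 53 and 14.5 CPM in LoVo and 0.145, 0.805 and 0.239 CPM in CCD841CoN. MT2A, another, was at 27.1, 150.1 and 70.8 CPM in LoVo and 869, 1358 and 1266 CPM in CCD841CoN, so each family had members on both sides. Metallothionein genes are close copies, and reads could be shared between them.

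Metabolic lists held calls in both directions, to be read against 26.4% higher and 21.6% lower over all genes. Glycolysis and hypoxia genes were lower for 13 of 31 and higher for 4, with a median of -0.83. SLC16A3, a lactate exporter, was at 4.19, 9.79 and 4.53 CPM in LoVo and 83.2, 105 and 112 CPM in CCD841CoN (log2 fold change -4.01 ± 0.71 SE, adjusted p = 0.000188, and -4.62 without LoVo replicate 2). SLC16A1, a lactate transporter of the same family, was higher, was at 589, 335 and 406 CPM in LoVo and 64.5, 74 and 95.1 CPM in CCD841CoN. SLC2A3, a glucose transporter, was at 0.396, 0.45 and 0 CPM in LoVo and 73.4, 94.1 and 86.5 CPM in CCD841CoN. LDHB, which favours lactate oxidation, was higher, at 1462, 1635 and 1113 CPM in LoVo and 535, 516 and 467 CPM in CCD841CoN (log2 fold change 1.47 ± 0.25 SE, adjusted p = 0.000139). SLC16A3 was thus lower and SLC16A1 higher in LoVo than in CCD841CoN. Redox and xenobiotic genes were higher for 9 of 36 and lower for 13. GPX2, a glutathione peroxidase of gut epithelium, was at 217, 180.1 and 336 CPM in LoVo, with no count in CCD841CoN. GPX8, of the endoplasmic reticulum, was at 8.02, 3.5 and 11.7 CPM in LoVo and 386, 371 and 366 CPM in CCD841CoN. AKR1C3, a ketosteroid reductase, was higher, at 31, 26.2 and 46.1 CPM in LoVo and 1.55, 2.62 and 0 CPM in CCD841CoN. AKR1B1, an aldose reductase, was lower, at 0.0527, 0.0346 and 0.767 CPM in LoVo and 513, 476 and 461 CPM in CCD841CoN. Sterol and fatty acid genes were higher for 10 of 31 (6 without LoVo replicate 2) and lower for 5 (2 without LoVo replicate 3, and 3 without CCD841CoN replicate 2 or 3). FADS2, a fatty acid desaturase, was at 6.93, 14.5 and 12.7 CPM in LoVo and 253, 292 and 276 CPM in CCD841CoN.

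Imprinted genes, expressed from 1 parental copy, were higher for 6 of 20 and lower for 8, against 26.4% and 21.6% of all genes. MEST was at 191, 157 and 162 CPM in LoVo and 28.3, 15.1 and 23.3 CPM in CCD841CoN (log2 fold change 2.93 ± 0.28 SE, adjusted p = 3.96e-07). GRB10, an insulin receptor adaptor, was at 201, 97 and 228 CPM in LoVo and 23.1, 15.2 and 26.1 CPM in CCD841CoN. NDN (necdin) was at 74.4, 59.1 and 51.2 CPM in CCD841CoN, with no count in LoVo. PLAGL1, a zinc finger factor, was at 5.46, 3.53 and 5.83 CPM in LoVo and 59.8, 56.2 and 67.8 CPM in CCD841CoN. Of 21 genes of chromatin and DNA methylation, 7 were higher and 3 lower. The share called, 47.6%, was near the 48.0% over all genes. EZH2, the methyltransferase of Polycomb, was at 90.8, 109.9 and 109 CPM in LoVo and 19, 22.4 and 17 CPM in CCD841CoN (log2 fold change 2.40 ± 0.25 SE, adjusted p = 7.62e-07). SMARCA1, a chromatin remodeller, was at 0.501, 0.173 and 0 CPM in LoVo and 185, 207 and 222 CPM in CCD841CoN. Of 13 cancer testis genes tested, 5 were higher and 3 lower, and MAGED2, a widely expressed member of the MAGE family, was lower at 33, 42.1 and 65.2 CPM in LoVo and 515, 503 and 494 CPM in CCD841CoN. Markers of other tissues were called in both directions: 3 higher and 3 lower of 8 for muscle, fat and blood, 2 and 2 of 7 for immune cells, and 2 and 2 of 7 for endothelium (1 lower without LoVo replicate 1). These counts are small and are to be read against the 26.4% and 21.6% over all genes. Of 6 neural and glial markers, 4 were lower. HBD, a minor globin chosen after its values were seen, was at 70, 160.3 and 158 CPM in CCD841CoN, with no count in LoVo. NPY, a neuropeptide, was at 575, 946 and 892 CPM in CCD841CoN, with no count in LoVo.

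**Figure D3:**
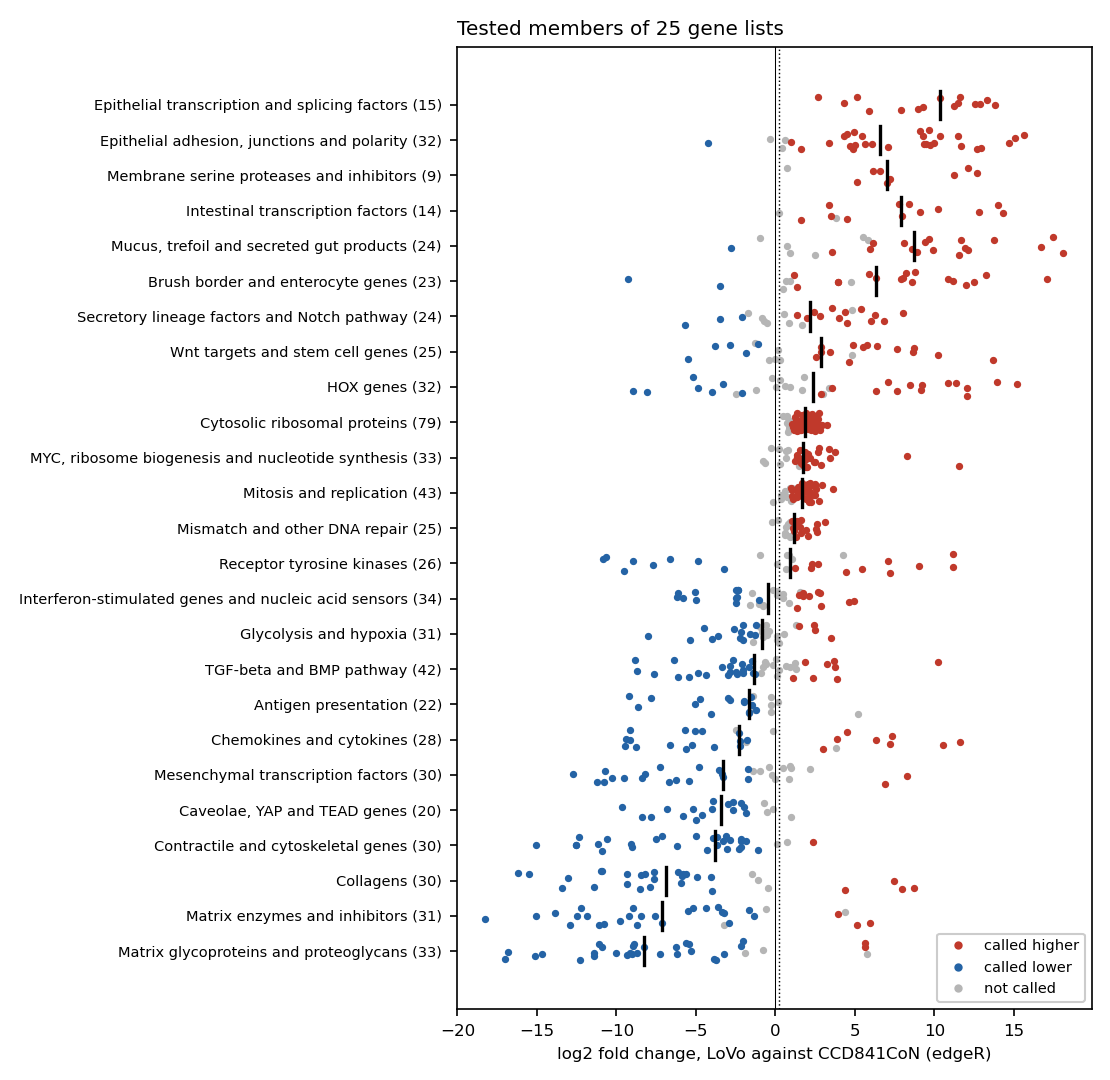
Log2 fold change of LoVo against CCD841CoN (edgeR's fitted value, also for genes with no count in a line) for the tested members of 25 gene lists, 1 point a gene, with the number tested after each name, a bar at the list's median and a dotted line at the median of all genes tested, 0.23. Epithelial and intestinal lists lie to the right, matrix and contractile lists to the left, and ribosomal, MYC and mitosis genes form narrow groups with medians of 1.88, 1.76 and 1.66.

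By ratio of means, the other genes that led on the higher side had varied roles. SERPINB5 (maspin), an epithelial serpin, was at 722, 586 and 611 CPM in LoVo and 0, 0.201 and 0 CPM in CCD841CoN. FXYD3, a regulator of the sodium pump, was at 187, 326 and 523 CPM in LoVo, with no count in CCD841CoN. HPGD, which degrades prostaglandins, was at 339, 198 and 252 CPM in LoVo, with no count in CCD841CoN. CALB1, a calcium-buffering protein, was at 976, 475 and 515 CPM in LoVo, with no count in CCD841CoN. These genes were high in every LoVo library. On the lower side, THY1, a surface protein of fibroblasts, was at 0.0264, 0.138 and 0 CPM in LoVo and 702, 913 and 818 CPM in CCD841CoN. CD248 (endosialin), of stroma, was at 880.4, 914 and 911 CPM in CCD841CoN, with no count in LoVo. LGALS1 (galectin-1) was at 0.132, 0.242 and 0.0767 CPM in LoVo and 4175, 3472 and 3284 CPM in CCD841CoN (log2 fold change -14.41 ± 0.89 SE, adjusted p = 5e-09). CHRM2, a muscarinic receptor of smooth muscle, was at 0, 0.0692 and 0 CPM in LoVo and 593, 509 and 519.9 CPM in CCD841CoN. By share of counts, EEF1A1, the translation elongation factor, took 0.473% in LoVo, and ACTB took 0.461% in LoVo and 1.99% in CCD841CoN. ACTB is often used as a reference gene, and here it was 5.57-fold lower in LoVo (log2 fold change -2.48 ± 0.40 SE, adjusted p = 7.41e-05).

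The comparison with LS1034, HT-29 and HCT116 shares the LoVo libraries, so its values stand beside those above and are not independent of them. Against the mean of the 3 lines on the log scale, 1852 genes (12.8%) were higher in LoVo and 1236 (8.55%) lower. Intestinal factors (8 of 14 higher, 1 lower) and mucus genes (10 of 24 higher, 4 lower) had larger shares called higher than the 12.8% over all genes. TGF-beta and BMP genes (20 of 42) and mesenchymal factors (13 of 30) did as well. Among mesenchymal factors, NKX2-3 was 7.26 ± 0.57 (SE) above the other lines on the log2 scale, while it was below CCD841CoN. That difference lies between a low level in LoVo, given above, and still lower levels in the other lines. CALB1 was at means of 0.0537 CPM in LS1034, 0.0493 CPM in HT-29 and 0.312 CPM in HCT116, against 655 ± 278 CPM (SD, n = 3) in LoVo (log2 difference 12.48 ± 0.50 SE, adjusted p = 1.26e-09).

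For 64 genes LoVo and the log-scale mean of the other lines lay on opposite sides of CCD841CoN, each called. In 49 LoVo was above and that mean below, and in 15 the reverse held. The lines were not called singly, and 1 of them could lie on LoVo's side of CCD841CoN. HAND1 was at 42 ± 27.4 CPM (SD, n = 3) in LoVo and 0.128 ± 0.121 CPM in CCD841CoN, with means of 0 CPM in LS1034, 0 CPM in HT-29 and 0.0688 CPM in HCT116 (LoVo against the others, log2 difference 11.61 ± 0.68 SE, adjusted p = 1.6e-07, and 10.99 without LoVo replicate 3). HAND1 was thus near 0 in CCD841CoN as well as in the other lines. PLAC8, a small protein of myeloid cells and colon tumours, was at 485 ± 109 CPM in LoVo and 6.77 ± 0.949 CPM in CCD841CoN, with 3.85 CPM in LS1034, 15.7 CPM in HT-29 and 0.0821 CPM in HCT116. HT-29 was thus above CCD841CoN for PLAC8, as LoVo was. CCND2 was at 767 ± 394 CPM in LoVo and 118 ± 4.49 CPM in CCD841CoN, with 1899 CPM in LS1034, 0.0505 CPM in HT-29 and 0.378 CPM in HCT116. In CCND2 the mean of the others was low through HT-29 and HCT116, while LS1034 was above LoVo. On the reverse side, CA9, the carbonic anhydrase that hypoxia induces, was at 0.0115 ± 0.02 CPM in LoVo and 0.426 ± 0.376 CPM in CCD841CoN, with 13.4 CPM in LS1034, 309 CPM in HT-29 and 0.122 CPM in HCT116 (log2 difference -8.82 ± 0.92 SE, adjusted p = 2.99e-06, and -8.09 without LoVo replicate 1 and no count in LoVo without its replicate 2). SDR42E1, a short-chain dehydrogenase, was at 0.0434 ± 0.054 CPM in LoVo and 4.22 ± 1.25 CPM in CCD841CoN, with 35 CPM in LS1034, 16.3 CPM in HT-29 and 39.1 CPM in HCT116. Unlike CA9, SDR42E1 was above CCD841CoN in each of the other lines. TNFRSF1B, a receptor for tumour necrosis factor, was at 86 ± 29 CPM in LoVo and 21.6 ± 4.04 CPM in CCD841CoN, with 161 CPM in LS1034, 0.115 CPM in HT-29 and 0.301 CPM in HCT116. LS1034 was above LoVo for TNFRSF1B, as for CCND2.

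**Figure D4:**
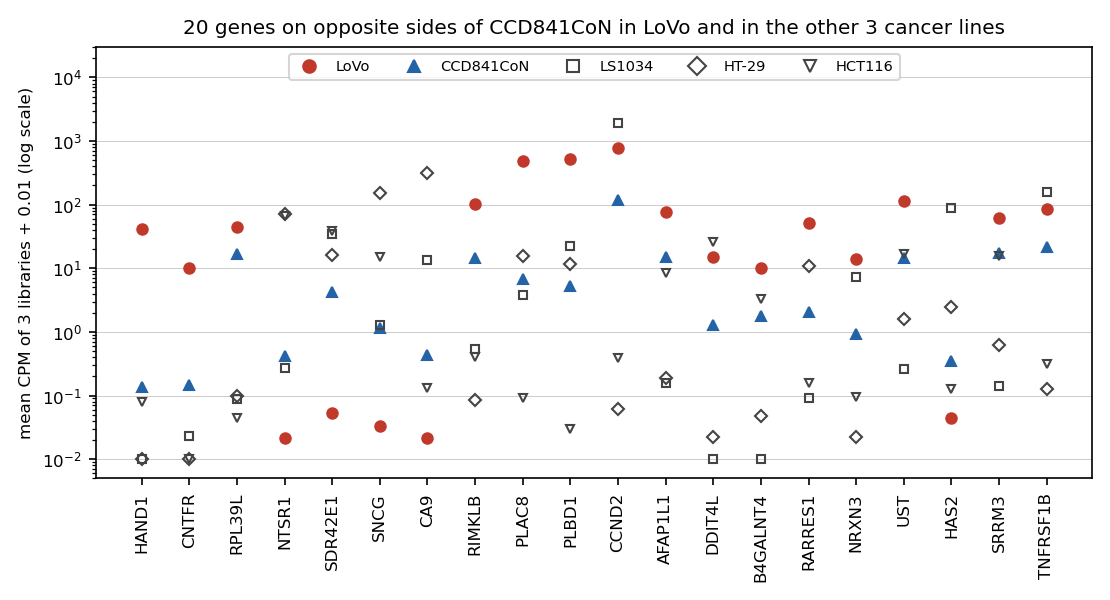
Mean level over 3 libraries, as CPM plus 0.01 on a log axis, of the 20 genes with the largest difference between LoVo and the other cancer lines among the 64 on opposite sides of CCD841CoN. LoVo (filled circle) and CCD841CoN (filled triangle) are set beside LS1034, HT-29 and HCT116 (open), whose own spread shows that 1 line can stand apart from the mean of the 3, as LS1034 does for CCND2.

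The LoVo mixtures, 1 library at each of 0.1%, 1%, 10% and 50% LoVo RNA, placed the unmixed values on a scale. In them TMM factors were computed over the 10 libraries of the series from LoVo to CCD841CoN, so levels differ slightly from those above. At 50% LoVo RNA, 89.4% of the genes called higher and 96.9% of those called lower lay between the unmixed means, at median positions of 48.1% and 52.9% of the way from each gene's CCD841CoN mean to its LoVo mean. At 10% the shares were 82.5% and 76.5% and the positions 11.9% and 15.4%. The CCD841CoN mean is over 3 libraries that differed for some genes, so these shares and positions also hold that spread. At 0.1% LoVo RNA, NPY was at 547 CPM, against 534, 925 and 878 CPM in CCD841CoN replicates 1, 2 and 3. EEF1A1 was at 1498 CPM, against 1462, 894 and 886 CPM. For both genes the mixture lay nearest replicate 1. How far this holds over all genes was not tested. REG4 was at 2.75, 25.6, 223 and 931 CPM from the lowest to the highest share of LoVo RNA. HOXA13 was at 0.126, 1.38, 21.3 and 75.6 CPM. GRHL2 was at 0, 1.61, 7.25 and 34.4 CPM, so at 0.1% it had no count while REG4 and HOXA13 did. PDGFRB, high in CCD841CoN, was at 288, 275, 277 and 149.6 CPM, lower at 50% than at the smaller shares. Each mixture is 1 library, so these levels have no replicate error.

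**Figure D5:**
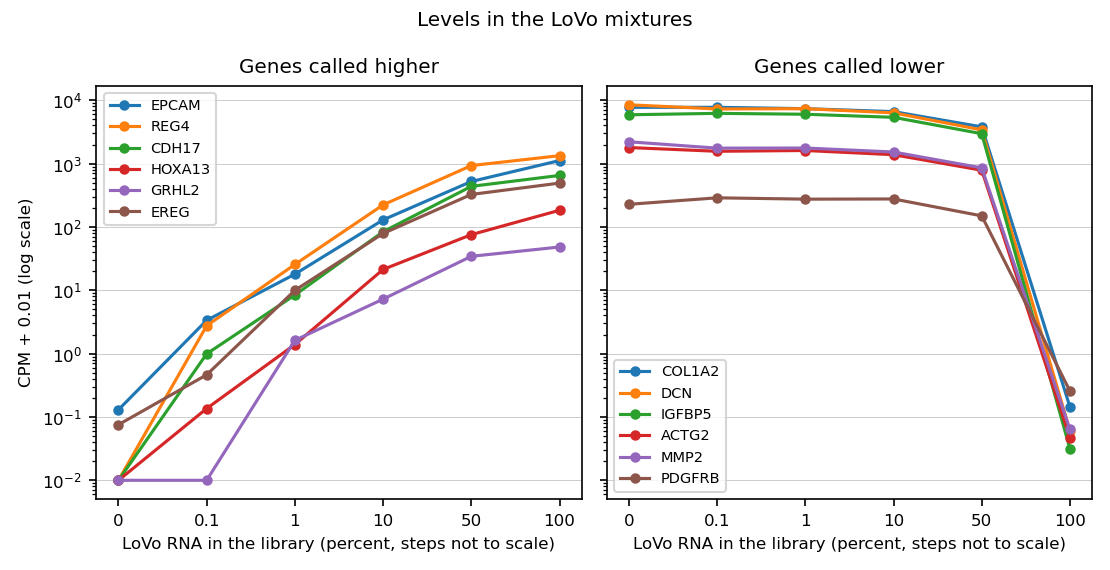
Levels of 6 genes called higher and 6 called lower in LoVo, as CPM plus 0.01 on a log axis, against the percentage of LoVo RNA (steps not to scale). The end points are means of 3 unmixed libraries and each mixture is 1 library. REG4 is counted at 0.1% LoVo RNA and GRHL2 first at 1%, and the genes called lower are still counted at 50%.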

How the data were processed

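Total RNA of 5 unmixed lines, 3 libraries each, and of RNA mixtures was sequenced. The deposited table holds whole-number counts of reads per gene. Per the submitters' processing notes, the authors used STAR and featureCounts with hg19, and versions and the strand setting are not given in the sources used here, so overlapping and antisense genes cannot be told apart. The raw counts of the 15 unmixed libraries were fitted together in edgeR 4.0.16 (R 4.3.3; filterByExpr, TMM, robust quasi-likelihood test), so that all lines share 1 estimate of the spread, and p-values were adjusted by Benjamini and Hochberg over the 14452 genes tested. SE is the log2 fold change divided by the root of the F statistic. The script was tested on simulated counts.

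Alternatives were DESeq2 1.42.0, other scalings, no filter, a replicate block, each library left out, only the 6 libraries, and the 0.1% mixtures as control. That control grouped the 0.1% mixtures of LoVo, LS1034, HT-29 and HCT116, which hold cancer RNA. Whether these mixtures came from separate CCD841CoN RNA is not stated. Replicate numbers come from the labels, which do not say what they mark. Deviations from the line mean, correlated between LoVo and the same-numbered library of another line, were 0.175 to 0.544 for the cancer lines, each library correlating best with its own number, and -0.0408 to -0.0207 for CCD841CoN.

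The genes and the 48 lists were chosen with earlier results of these data known. The named genes are the 25 with the largest ratio per direction at 10 CPM or more, the 15 with the largest share of counts per line, the 20 with the largest opposite difference, and list members, of which those whose call held without each library were preferred, a choice made after their values were seen. Promoters are RefSeq's GRCh38.p14, matched by symbol for 11549 genes tested, while the counts use hg19, and no coordinate was carried between the builds. Levels of XIST and Y-linked genes are not reported.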

Additional observations from a re-analysis of the deposited data

Results flagged for a closer look

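The 20 genes with the largest difference on opposite sides of CCD841CoN differed between cancer lines under the same control, by edgeR's test of LoVo against the mean of LS1034, HT-29 and HCT116, and the comparisons share the CCD841CoN libraries. On the log2 scale, HAND1 was 11.61 higher in LoVo, CNTFR 10.26, RPL39L 9.61, RIMKLB 8.54, PLAC8 8.15, PLBD1 8.05, CCND2 7.74, AFAP1L1 6.84 and DDIT4L 6.73. B4GALNT4 was 6.70 higher, RARRES1 6.55, NRXN3 5.87, UST 5.85, SRRM3 5.72 and TNFRSF1B 5.69. The reverse held for NTSR1 (-9.26), SDR42E1 (-8.99), SNCG (-8.87), CA9 (-8.82) and HAS2 (-5.80). In the plot of their mean levels, several rest on 1 or 2 of the other lines: NTSR1 was at means of 0.261 CPM in LS1034, 71.8 CPM in HT-29 and 65.5 CPM in HCT116, and HAS2 at 87.8 CPM in LS1034, 2.47 CPM in HT-29 and 0.117 CPM in HCT116. The calls against CCD841CoN were lost for NTSR1 without LoVo replicate 1 (-3.51) or CCD841CoN replicate 3 (-3.07) and for HAS2 without CCD841CoN replicate 1 (-2.07). Against CCD841CoN, HAS2 was at -2.85 with all libraries and at -6.08 without LoVo replicate 1, which held its only LoVo counts. For RPL39L the call against CCD841CoN was lost on leaving out any library but LoVo replicate 1 (1.24 to 1.56). CNTFR against CCD841CoN was at 6.39 with all libraries and at 10.91 without CCD841CoN replicate 2. That replicate held its only counts in CCD841CoN, so its side of CCD841CoN rests on that library. RPL39L, a copy of a ribosomal protein gene, was at 0.077 CPM in LS1034, 0.0893 CPM in HT-29 and 0.0349 CPM in HCT116. No cause was tested.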

How the results depend on the processing

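The 6930 calls became 6833 with DESeq2's size factors, 7338 with library size alone, 7026 without the filter, 6895 with DESeq2, 6629 with only the 6 libraries and 7150 with the 0.1% mixtures as control, all within 1.5 times the first count. Leaving out a library gave 6338 to 6906. Of the calls, 86.5% to 98.8% were kept under each alternative, against the other lines 74.6% (without LoVo replicate 1) to 99.4%, and 0 were called in the other direction. The replicate block gave 7093 calls (6549 with only the 6 libraries). Against the other lines, the 3088 calls became 2505 to 3093 on leaving out a LoVo library, 3259 with the replicate block and 3211 with the block in the 12 cancer libraries, an alternative chosen after seeing the data. The block changed neither count by over 1.5 times. The share of calls that were higher, 55.04%, became 65.18% with library size alone, 50.37% with DESeq2's size factors and 48.97% with only the 6 libraries and the block. Depth limits genes near 0: LoVo libraries at 0 allow up to 0.0376 CPM.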

Other observations

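Grouped by chromosome, the median log2 fold change of LoVo against CCD841CoN ranged from -0.26 on chromosome X (487 genes tested) to 0.84 on chromosome 15 (466 genes), against 0.23 over all genes. Chromosome 12 (786 genes) was at 0.72 and chromosome 7 (686 genes) at 0.70, while chromosome 19 (1063 genes) was at -0.18 and chromosome 22 (340 genes) at -0.16. On chromosome 15, 181 genes were higher in LoVo and 67 lower, and on chromosome 19, 189 were higher and 310 lower. Against the other cancer lines, chromosome 18 (200 genes) was at 0.41, chromosome 5 (669 genes) at 0.41 and chromosome 20 (383 genes) at -0.48. Chromosomes were assigned by symbol for 14428 of the 14452 genes. Genes of a chromosome share their copies and their neighbours, so they are not independent, and these medians are given as values only.

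Some genes known mainly from other tissues had counts. CCD841CoN had counts of NPY, at 575, 946 and 892 CPM, of HBD, at 70, 160.3 and 158 CPM, and of PSG5, a pregnancy glycoprotein of placenta, at 544, 882 and 878 CPM. The erythroid markers HBB, HBA1 and ALAS2 together summed to 0.775 to 2.39 CPM in CCD841CoN, far below HBD. ALPP, the placental alkaline phosphatase, was at 30.4, 126 and 75.4 CPM in LoVo and 0.0484, 0 and 0 CPM in CCD841CoN. PSG and alkaline phosphatase genes have close copies, which makes these values uncertain.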
